A study of Mus musculus with 24 samples.

Results

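The genes described here encode activin subunits, follistatins and related ligands of the transforming growth factor-beta superfamily: Inhba, Inhbb, Fst, Fstl3, Fstl1, Gdf15, Bmp2, Bmp4, Bmp6 and Mstn. The list is one of names and uses no measured value, but it was drawn up with earlier results of these data known, and all 10 were found among the 14912 genes of the deposited table. All 10 also passed the filter on low values (mean FPKM of at least 0.1) and so belong to the 14026 genes tested. The series compared left ventricles of wild-type mice after 7 days of angiotensin II (ANG II), delivered by subcutaneous osmotic mini-pump at 1500 ng/kg/min (hypertensive-LVH group, n = 12), with left ventricles of wild-type mice whose pumps delivered saline over the same time (control group, n = 12). The study's methods give the mice as male C57BL/6J. In both groups the heart was flushed with saline before the ventricle was taken, and RNA was sequenced after enrichment of polyadenylated mRNA. The question was which transcripts differ between the hypertrophied and the normal ventricle. One label text on RNA extraction speaks of CRC cells rather than heart. The 9 ventricular cardiomyocyte markers summed to 35673 to 60460 FPKM over the 24 samples, and all 9 were present.

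Activins are dimers of inhibin beta chains, encoded by Inhba and Inhbb, which signal through activin receptors and Smad2 and Smad3. Follistatin (Fst) and follistatin-like 3 (Fstl3) are secreted proteins that bind activins and myostatin (Mstn) and keep them from their receptors, and Fstl3 is itself a known target of activin signalling. Follistatin-like 1 (Fstl1) is a secreted glycoprotein of mesenchymal cells that shares the follistatin domain. Bone morphogenetic proteins (Bmp2, Bmp4, Bmp6) signal through Smad1, Smad5 and Smad9. Gdf15 is a distant family member that circulates as a stress hormone, signals through Gfral and Ret in the hindbrain, and is induced in injured hearts by the integrated stress response and p53.

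The start-proximal sequence of both genes with the largest rise, Fstl3 and Gdf15, is shown because the data concern how much of these transcripts was present. RefSeq promoters (GRCm38.p6) were matched for 8 of the 10 genes, with 9 windows in all since Gdf15 had a pair of starts, while Fst and Bmp2 were not matched. The 250 bases before the start are printed 5′ to 3′, for Gdf15 on the minus strand at chr8:70632457-70632706 (first of its starts) and for Fstl3 on the plus strand at chr10:79777024-79777273. Capitals mark the only match of the 4 motifs searched in these 9 windows.
Gdf15: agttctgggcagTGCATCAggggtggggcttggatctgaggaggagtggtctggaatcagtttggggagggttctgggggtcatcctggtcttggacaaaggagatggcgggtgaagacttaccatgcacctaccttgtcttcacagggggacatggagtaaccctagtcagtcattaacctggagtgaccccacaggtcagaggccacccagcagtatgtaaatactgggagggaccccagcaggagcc
Fstl3: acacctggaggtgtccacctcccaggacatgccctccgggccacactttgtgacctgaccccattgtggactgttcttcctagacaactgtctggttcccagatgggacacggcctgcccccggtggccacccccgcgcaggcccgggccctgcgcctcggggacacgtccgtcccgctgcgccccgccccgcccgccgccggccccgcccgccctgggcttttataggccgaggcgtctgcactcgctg
The capitals in Gdf15 are the reverse complement of TGATGCA, part of the element bound by ATF4, at 238 to 232 bases before the start. Over all 32851 promoter windows of 300 bases (250 before and 50 after the start), both strands counted, 3.15% held TGATGCA. The other motifs were GTCTAGA (part of the Smad binding element, in 2.19% of all windows), GGCGCC (a GC element of BMP response, in 11.9%) and TGACTCA (the AP-1 site, in 5.20%). None of these 3 was in the 9 windows of the genes described here. GC content of the printed 250 bases was 56.4% for Gdf15 and 71.2% for Fstl3.

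The values are FPKM (sequenced fragments of a gene, scaled to its transcript length and to the library's total), which the authors adjusted further, since 0.766% of all values are negative. Depth in reads is not known from the table, so no counting interval can be given. The adjustment left a trace: samples 1 to 3, 4 to 6, 7 to 9 and 10 to 12 of each group carry gene-wise rescaled values, and hypertensive-LVH and control samples of the same numbers share the scale (1000 of 1000 genes examined). These 4 sets each hold 3 mice of each group, and what they stand for is not named in the labels. The differences between groups within each set, as they were before the rescaling, were recovered for 14563 genes (97.7%), all 10 genes included. The recovery modelled the adjustment with a term for the group that was kept out of the rescaling. The limma tests below treat the deposited values as independent. What the adjustment did to their p-values was not tested. Samples 4 to 6 stood apart: the summed FPKM of 8 fibroblast markers averaged 210 in control samples 4 to 6 against 951, 873 and 924 in the other control sets, and 2085 in hypertensive-LVH samples 4 to 6 against 1128, 1251 and 1198. These are sums of adjusted values, with negative values counted as 0. Col1a1, Col1a2 and Col3a1 each had 3 negative values, so the sums do not give the level of fibroblast RNA before the adjustment. The limma results below, and the exact tests of the 10 genes, are therefore given with and without samples 4 to 6 of each group where these change them. Correlations between genes and with cell type markers were not computed without these 6 mice.

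Of the 10 genes, 6 rose with ANG II (limma on log2(FPKM + 1), Benjamini-Hochberg adjusted p under 0.05 over all genes tested), against 20.9% of all genes tested that rose and 33.5% that changed in either direction. These were Fstl3, Gdf15, Fstl1, Inhba, Bmp2 and Bmp4. None of the 10 fell, against 12.6% of all genes. With the study's criteria for differentially expressed genes (DEGs), an absolute log2 fold change over 0.5 in addition, Fstl3 and Gdf15 were the 2 DEGs, against 4.52% of all genes as DEGs that rose and 1.40% as DEGs that fell. The median log2 fold change of the 10 genes was 0.41, and that of all genes tested was 0.05. Bmp6 alone had a negative estimate. Because 1 FPKM is added before the logarithm, these fold changes understate the change of genes near or below 1 FPKM.

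**Figure D1:**
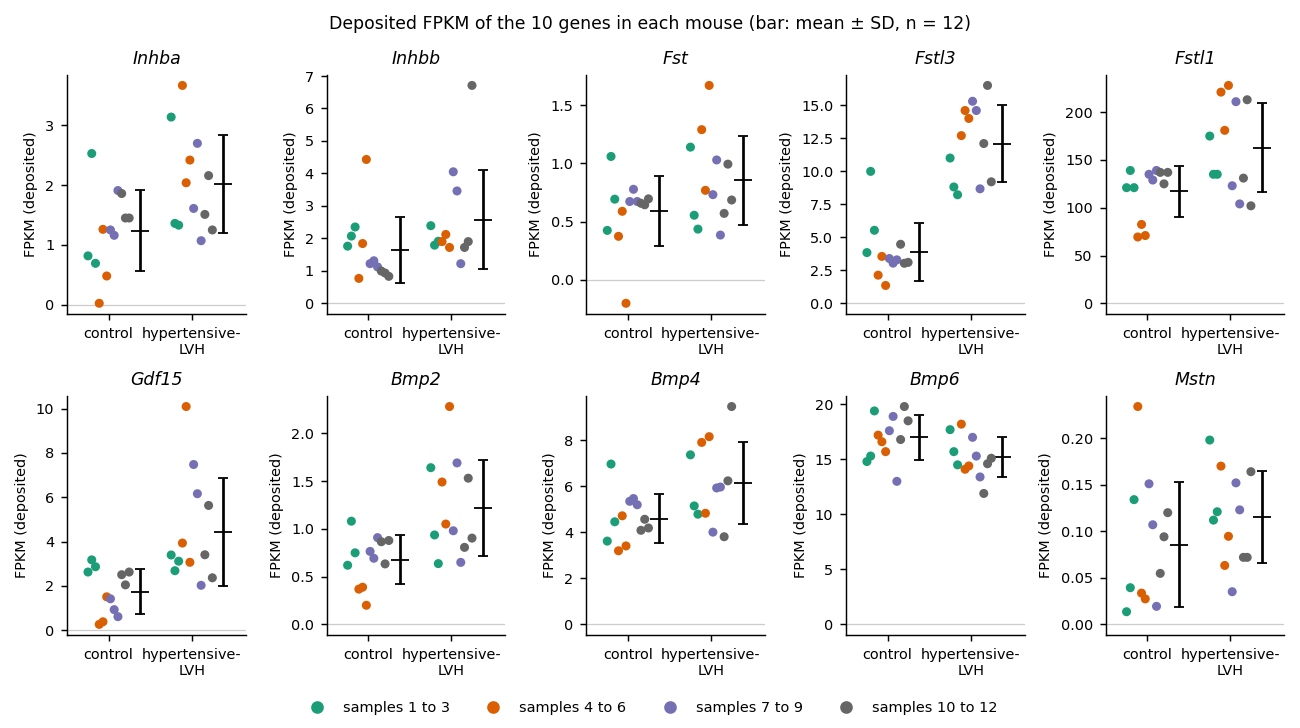
Deposited FPKM (y axis) of each of the 10 genes in each of 12 control and 12 hypertensive-LVH mice (x axis), one point per mouse coloured by set of samples, with the mean ± SD beside each group. Fstl3 shows the clearest separation, with 11 of 12 control values below the lowest hypertensive-LVH value of 8.22 FPKM, whereas Bmp6 and Mstn overlap broadly.

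**Figure D2:**
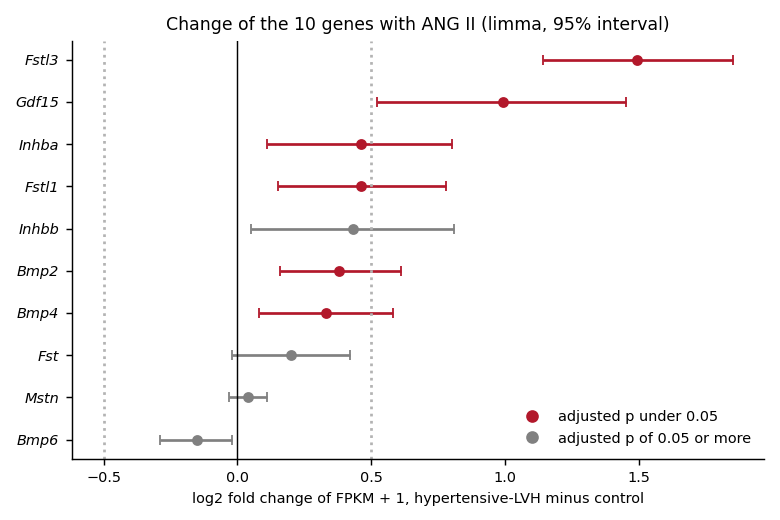
Log2 fold change of FPKM + 1, hypertensive-LVH minus control (x axis), of each of the 10 genes with its 95% interval from limma, red where the adjusted p was under 0.05 and dotted lines at an absolute log2 fold change of 0.5. Fstl3 (1.49) and Gdf15 (0.99) lie past the dotted line with their whole intervals, and the intervals of Fst and Mstn include 0.

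Inhba encodes the beta A chain of activin A (chromosome 13, 16011851 to 16031621, plus strand, GRCm38). In control ventricles it ranged from 0.0219 to 2.53 FPKM with a median of 1.25, and in hypertensive-LVH ventricles from 1.07 to 3.67 FPKM with a median of 1.82. The groups overlapped, with 3 hypertensive-LVH mice above every control mouse and 4 control mice below every hypertensive-LVH mouse. The mean rose from 1.24 ± 0.682 to 2.02 ± 0.821 FPKM (SD, n = 12), a log2 fold change of 0.46 ± 0.17 (SE, limma adjusted p = 0.0375). This call was lost in 10 of the 24 fits that left out 1 mouse (hypertensive-LVH samples 1, 4, 5, 6, 8 and 11, control samples 1, 3, 4 and 6), with adjusted p up to 0.0674. It was also lost without samples 4 to 6, where the log2 fold change was 0.18 (adjusted p = 0.408). In all, it passed in 5 of 13 other settings, and among those it missed were a pseudocount of 0.1 (adjusted p = 0.0586), quantile normalization (0.0544), the Wilcoxon rank-sum test (0.0770), a term for the set (0.0560), and the fits without samples 1 to 3 (0.0561) and without samples 7 to 9 (0.0503). Inhba overlaps an antisense gene and a pseudogene on the minus strand, which are not listed in the table, and the strand setting of the counting is not given in the sources used here.

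Inhbb encodes the beta B chain of activin B (chromosome 1, 119415465 to 119422248, minus strand). Control values ran from 0.767 to 4.43 FPKM with a median of 1.27, and hypertensive-LVH values from 1.22 to 6.71 FPKM with a median of 1.90. The highest value of each group stood well away from the rest, at control sample 6 and hypertensive-LVH sample 12. Over all mice the log2 fold change was 0.43 ± 0.18 and did not pass (limma adjusted p = 0.0759). It passed when samples 4 to 6 were left out (0.58, adjusted p = 0.0395), when control sample 6 was left out (0.53, adjusted p = 0.0185) and when hypertensive-LVH sample 9 was left out (0.48, adjusted p = 0.0458). The activin chains had their widest differences in different sets. Before the adjustment, Inhbb was higher in hypertensive-LVH by 1.43 FPKM in samples 7 to 9 and by 3.50 FPKM among samples 10 to 12, with no overlap in either. The other sets, samples 1 to 3 and samples 4 to 6, differed by -0.0167 and -0.387 FPKM. Inhba showed its widest difference, 2.05 FPKM, in samples 4 to 6.

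Fstl3, the activin-binding protein, changed most among the 10 genes (chromosome 10, 79777272 to 79782630, plus strand). Control ventricles held 1.35 to 9.99 FPKM with a median of 3.34, and hypertensive-LVH ventricles 8.22 to 16.5 FPKM with a median of 12.4. All 12 hypertensive-LVH mice lay above the control median, which 7.42% of all genes showed, and 8 lay above every control mouse. Only control sample 2, at 9.99 FPKM, reached into the hypertensive-LVH range, and 0.927% of all genes had at least 11 of 12 control values below the lowest hypertensive-LVH value. The mean rose from 3.89 ± 2.19 to 12.1 ± 2.92 FPKM (SD, n = 12), a ratio of 3.12. The log2 fold change was 1.49 ± 0.17 (limma adjusted p = 2.11e-06). It passed in all 24 fits without 1 mouse (1.41 to 1.61) and in all 13 other settings tried (1.26 to 1.81). Fstl3 overlaps Prss57, a serine protease gene on the opposite strand, whose own values were 1.63 ± 1.17 FPKM in hypertensive-LVH and 0.950 ± 0.820 FPKM in control (log2 fold change 0.35, adjusted p = 0.200).

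Fst, follistatin itself (chromosome 13, 114452290 to 114458951, minus strand), was the lowest but for Mstn. It ranged from -0.201 to 1.06 FPKM in control, with a median of 0.665, and from 0.385 to 1.67 FPKM in hypertensive-LVH, with a median of 0.751. The negative value, in control sample 6, was set to 0 for the fit. The medians lay close together, and 3 hypertensive-LVH mice exceeded every control mouse. The log2 fold change was 0.20 ± 0.11 and did not pass (limma adjusted p = 0.139), nor did it in any other limma fit or in the Wilcoxon test (adjusted p 0.0769 or higher). It passed in the exact permutation test on values before the adjustment when samples 1 to 3 were left out (0.470 FPKM, adjusted p = 0.0104), and not over all 4 sets (0.312 FPKM, 0.153). Its 95% interval of -0.02 to 0.42 leaves room for a rise of a size like that of Bmp2.

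Fstl1 was by far the most abundant of the 10 (chromosome 16, 37776873 to 37836514, plus strand). Control values were 69.4 to 139 FPKM with a median of 127, and hypertensive-LVH values 102 to 228 FPKM with a median of 155. The 3 lowest control values belonged to samples 4 to 6, at a mean of 74.3 FPKM, while the other control sets averaged 127, 134 and 133 FPKM. The mean rose from 117 ± 26.8 to 163 ± 46.9 FPKM, a log2 fold change of 0.46 ± 0.15 (limma adjusted p = 0.0233). The call held in all 24 fits without 1 mouse and was lost without samples 4 to 6, where the log2 fold change was 0.12 (adjusted p = 0.513), and in a Wilcoxon rank-sum test (adjusted p = 0.151). In the exact permutation test on values before the adjustment, Fstl1 was higher by 35.4 FPKM without samples 4 to 6, and did not pass (adjusted p = 0.0775).

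Gdf15, the stress-induced hormone, was the other DEG (chromosome 8, 70629393 to 70632456, minus strand, with its promoter shown above). Control values ran from 0.254 to 3.17 FPKM with a median of 1.77, and hypertensive-LVH values from 2.02 to 10.1 FPKM with a median of 3.40. All 12 hypertensive-LVH mice were above the control median and 7 were above every control mouse, yet the groups overlapped between 2.02 and 3.17 FPKM. The mean rose from 1.74 ± 1.03 to 4.44 ± 2.43 FPKM, a ratio of 2.55, with a log2 fold change of 0.99 ± 0.23 (limma adjusted p = 0.00195). It passed in all 24 fits without 1 mouse (0.88 to 1.05) and without samples 4 to 6 (0.68, adjusted p = 0.0308).

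Bmp2 (chromosome 2, 133552159 to 133562885, plus strand), a ligand known for its part in valve and vessel formation, was low. Control values were 0.200 to 1.08 FPKM with a median of 0.720, and hypertensive-LVH values 0.636 to 2.28 FPKM with a median of 1.02. In 10 of 12 hypertensive-LVH mice it exceeded the control median, and in 5 it exceeded every control mouse. The log2 fold change was 0.38 ± 0.11 (limma adjusted p = 0.00843). Without samples 4 to 6 it was 0.19 and no longer passed (adjusted p = 0.168).

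Bmp4 (chromosome 14, 46383520 to 46390669, minus strand), the closest relative of Bmp2, was several times more abundant. It ranged from 3.20 to 6.97 FPKM in control, median 4.52, and from 3.81 to 9.47 FPKM in hypertensive-LVH, median 5.95. The log2 fold change was 0.33 ± 0.12 (limma adjusted p = 0.0384), and 4 hypertensive-LVH mice exceeded every control mouse. This call rested near the threshold: it was lost in 12 of 24 fits without 1 mouse (hypertensive-LVH samples 1, 4, 6, 8, 11 and 12, control samples 1, 3, 4, 6, 10 and 12), with adjusted p up to 0.0707. It passed in 7 of 13 other settings, and without samples 4 to 6 the log2 fold change was 0.20 (adjusted p = 0.302).

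Bmp6, which in the liver regulates iron through hepcidin, had the opposite sign (chromosome 13, 38345107 to 38500302, plus strand). Control values were 13.0 to 19.8 FPKM with a median of 17.0, and hypertensive-LVH values 11.9 to 18.2 FPKM with a median of 14.8. Only 3 of 12 hypertensive-LVH mice were above the control median. The log2 fold change was -0.15 ± 0.07 and did not pass (limma adjusted p = 0.0765). It passed under median-ratio scaling (-0.20, adjusted p = 0.0254) and quantile normalization (-0.21, adjusted p = 0.0162), under which the median of all genes went from 0.05 to 0.02 and -0.02, and without hypertensive-LVH sample 4 (adjusted p = 0.0432) or control sample 9 (adjusted p = 0.0261). Bmp6 overlaps Txndc5 on the opposite strand, an endoplasmic reticulum disulfide isomerase, which rose from 23.6 ± 5.55 to 32.4 ± 8.74 FPKM (log2 fold change 0.43, adjusted p = 0.0254).

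Mstn, myostatin, is the muscle-restricting ligand that Fst and Fstl3 bind (chromosome 1, 53061640 to 53068079, plus strand). It was barely present, at 0.0136 to 0.234 FPKM in control (median 0.0745) and 0.0351 to 0.198 FPKM in hypertensive-LVH (median 0.117). Its mean over all mice lay just inside the filter of 0.1 FPKM, so that it dropped out of the fit without samples 4 to 6, and the groups overlapped over nearly their whole range. The log2 fold change was 0.04 ± 0.03 (limma adjusted p = 0.381), and at such levels the added 1 FPKM keeps any fold change near 0. A difference of Mstn was therefore not detectable here, which does not show that none exists.

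The order of levels changed at 1 place. In FPKM, which is per length of transcript, Fstl1 exceeded Bmp6 and Bmp6 exceeded Bmp4 in all 24 mice. Bmp4 was above Fstl3 in 8 of 12 control mice, but in only 1 of 12 hypertensive-LVH mice. Fstl3 exceeded Gdf15 in 11 of 12 control and 12 of 12 hypertensive-LVH mice. Gdf15 and Inhbb were not separable in control, where Gdf15 was higher in 7 of 12, whereas Gdf15 was higher in 11 of 12 hypertensive-LVH mice. Inhbb and Inhba were not separable in either group, with Inhbb higher in 6 of 12 control and 8 of 12 hypertensive-LVH mice. Below them came Bmp2, Fst and Mstn. In hypertensive-LVH, Bmp2 was above Fst in 12 of 12 mice, and in control in 8 of 12.

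Single mice carried many of the extremes. Control sample 2 was the highest of the 12 control mice in 7 of the 10 genes (Inhba, Fst, Fstl3, Fstl1, Gdf15, Bmp2 and Bmp4). Within its set of 3 control mice it was the highest in those same 7, while over all genes tested it was the highest of the 3 in 43.7%. The same mouse stood apart in markers of other tissues: its 3 listed atrial cardiomyocyte markers summed to 3153 FPKM, against 0 to 357 in the other control mice, its 5 adipocyte markers to 23.8 FPKM, against at most 4.07, and its 6 epicardial and mesothelial markers to 61.5 FPKM, against at most 42.9. Its fibroblast sum, 1017 FPKM, was close to the next of 953. Leaving it out, the same 6 genes passed, against 23.8% of all genes that then rose. Hypertensive-LVH sample 6, the highest of its group in Fst, Fstl1 and Bmp2, had atrial markers at 2303 FPKM, against 0 to 624 in the other hypertensive-LVH mice, adipocyte markers at 16.7 FPKM, against at most 7.44, and the highest fibroblast sum, 2639 FPKM. Leaving it out, 4 genes passed (Fstl3, Gdf15, Fstl1 and Bmp2), against 17.0% of all genes that rose. The part of these tissues in the members' values was not tested. Each of the 3 atrial markers had 7 negative values, counted as 0 in these sums, so that a sum of 0 does not show that atrial RNA was absent. Hypertensive-LVH sample 1 was the highest of its set of 3 in all 10 genes, against 53.1% of all genes tested. Control sample 1 was the lowest of its 3 in 9 of the 10, against 35.6% of all genes. Hypertensive-LVH sample 6 was the highest of its 3 in 4 of the 10, against 50.1% of all genes. The share of all genes for which a mouse was the highest of 12 was not counted.

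The sets showed how far the difference recurred (differences below are in order of sample number). Before the adjustment, the mean difference of Fstl3 between hypertensive-LVH and control was 1.27, 11.6, 9.03 and 9.04 FPKM in the sets from samples 1 to 3 up to samples 10 to 12. The last 3 of these sets had no overlap between groups, and samples 1 to 3, which include control sample 2, did. Gdf15 had differences of -0.0967, 5.96, 3.89 and 1.78 FPKM and no overlap in the same 3 sets. Bmp2 differed by 0.160, 1.60, 0.420 and 0.353 FPKM, also without overlap in those 3 sets. No overlap, with hypertensive-LVH higher, in at least 3 of the 4 sets was found for 5.23% of all genes with recovered values. Counted by set, 0 of the 10 genes were higher without overlap in samples 1 to 3 (4.45% of all genes), 7 in the next set (40.4%), 5 in the one after (18.7%) and 5 in samples 10 to 12 (12.7%). The mean was higher in all 4 sets for 5 of the 10 (Inhba, Fstl3, Fstl1, Bmp2 and Bmp4), against 21.7% of all genes. For Fstl1 the differences were 5.33, 147, 63.9 and 36.8 FPKM, and for Bmp4 they were 0.457, 3.16, 0.613 and 2.31 FPKM. Fst differed by 1.04 FPKM in samples 4 to 6 and by no more than 0.187 FPKM in the other sets. Bmp6 was lower in every set, by -0.403, -0.987, -1.26 and -4.97 FPKM, and only in samples 10 to 12 did its groups not overlap.

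**Figure D3:**
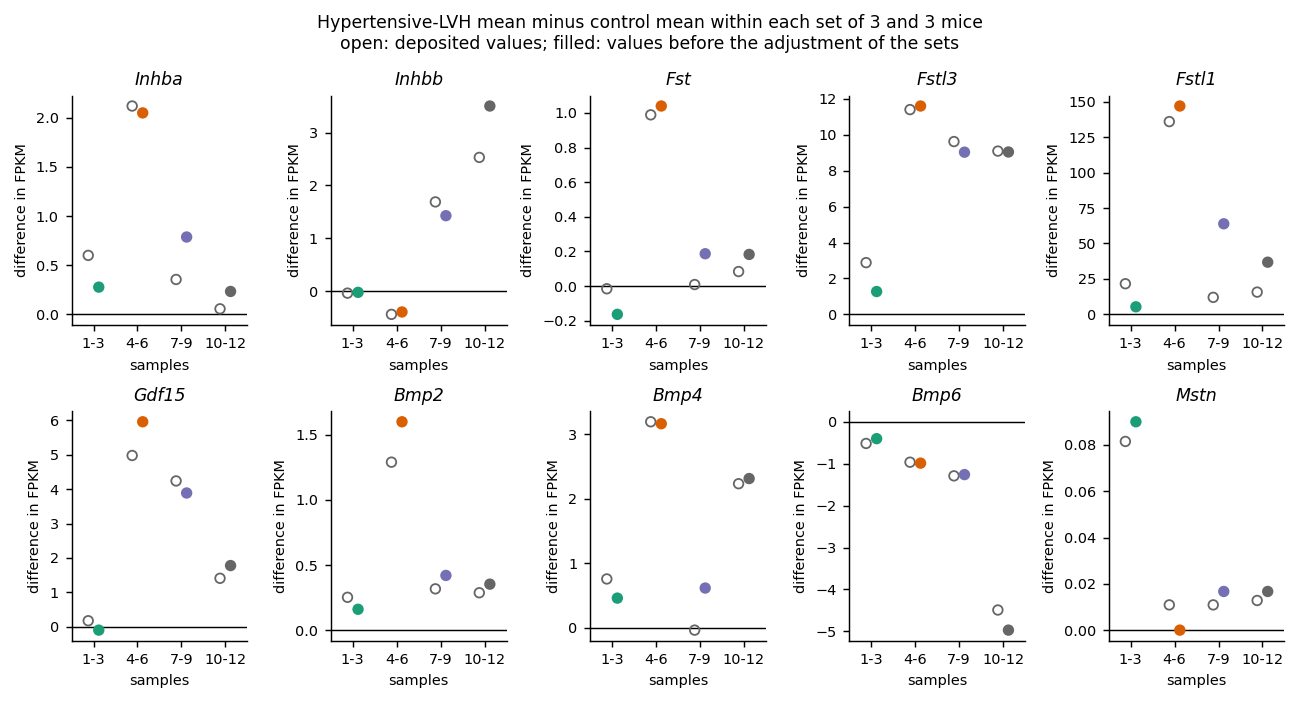
Difference in FPKM between the hypertensive-LVH mean and the control mean (y axis) within each set of 3 and 3 mice (x axis, sample numbers), one panel per gene, as deposited (open) and before the adjustment (filled). Samples 4 to 6 gave the widest difference for Inhba, Fst, Fstl3, Fstl1, Gdf15, Bmp2 and Bmp4 before the adjustment, and samples 10 to 12 for Inhbb and Bmp6.

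An exact permutation test that exchanged labels only within the sets (160000 relabelings, two-sided) on the values before the adjustment called 4 of the 10 genes higher, against 17.8% of 13969 genes, and none lower, against 10.2%. Fstl3 had a mean within-set difference of 7.73 FPKM (adjusted p = 0.00240), Gdf15 2.88 FPKM (0.00425), Fstl1 63.3 FPKM (0.00700) and Bmp2 0.633 FPKM (0.0195). Inhba, with 0.836 FPKM (adjusted p = 0.0724 in the exact test), and Bmp4, with 1.63 FPKM (0.0856), did not pass. On the deposited values, where 16.6% of genes were called higher, Fstl1 missed the threshold (46.3 FPKM, exact adjusted p = 0.0551) and the other 3 passed. Without samples 4 to 6, the exact test on values before the adjustment called Fstl3 (6.45 FPKM, adjusted p = 0.0254), Gdf15 (1.86 FPKM, 0.0433) and Inhbb (1.64 FPKM, 0.0443), against 5.98% of genes. Without samples 7 to 9 it called Fstl3 alone (adjusted p = 0.0316), against 6.51% of genes, with Gdf15 at an exact adjusted p of 0.0501. Leaving out samples 1 to 3, it called 6 of the 10, against 24.4% of genes: Fstl3, Gdf15 and Bmp2 (each at an exact adjusted p of 0.00318), Fstl1 (0.00600), Fst (0.0104) and Inhba (0.0157). Leaving out samples 10 to 12, it called Fstl3 (exact adjusted p = 0.0257), Fstl1 (0.0292) and Gdf15 (0.0362), against 9.43% of genes. Fstl3 was thus called in each of these 4 tests, and Gdf15 in 3. With 1 set left out fewer relabelings exist, and the smallest exact p is 2.5e-04. Fstl3, Gdf15 and Bmp2 all stood at it without samples 1 to 3.

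Whether the effect of ANG II differed between sets was tested as an interaction in limma. Fstl1 (adjusted p = 0.0135) and Fstl3 (adjusted p = 0.0442) passed, 2 of 10 genes against 7.49% of all genes tested, and Gdf15 did not (adjusted p = 0.0582). On the log2 scale of the deposited values, the difference of Fstl1 was 1.49 in samples 4 to 6, against 0.22, 0.06 and 0.09 for the other sets in order. That of Fstl3 was 2.19 in the same set, 1.67 and 1.57 in the 2 sets after it, and 0.55 in the one before. The adjustment altered this contrast for Fstl1. Outside samples 4 to 6 its differences were 21.6, 12.0 and 15.7 FPKM as deposited, and 5.33, 63.9 and 36.8 FPKM before the adjustment. Without samples 4 to 6 neither gene passed the interaction test, nor did either without hypertensive-LVH sample 6, while the share of all genes that passed went to 0.0214% and 2.78%.

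Markers of other cell types moved with the groups. All 8 macrophage markers rose, with sums of 199 to 550 FPKM in hypertensive-LVH and 137 to 287 FPKM in control. All 5 red blood cell markers rose as well (779 to 6443 against 92.2 to 2949 FPKM), although the hearts had been flushed. Of 8 fibroblast markers 4 rose and none fell (708 to 2639 against 142 to 1017 FPKM), and of 9 ventricular cardiomyocyte markers 5 fell and none rose (35673 to 52137 against 46831 to 60460 FPKM). Without samples 4 to 6, 1 of 8 macrophage markers, 1 of 8 fibroblast markers and 5 of 5 red blood cell markers rose, and of the cardiomyocyte markers 3 fell and 1 rose. Under quantile normalization 2 cardiomyocyte markers fell and 1 rose. No atrial, epicardial or adipocyte marker passed (3, 6 and 5 tested), and of 8 smooth muscle and pericyte markers 2 rose and 2 fell. Without samples 4 to 6, 1 of 6 epicardial markers rose, and of the 8 smooth muscle and pericyte markers none rose and 2 fell. Endothelial markers showed 1 rise and 1 fall among 8 (395 to 609 against 419 to 521 FPKM). The skeletal muscle myosins Myh1, Myh2 and Myh4 were not listed, which bears on Mstn, and the 5 skeletal muscle markers that were listed summed to no more than 15.6 FPKM. Of these 5, 1 rose, Tnnt3 (log2 fold change 0.80, limma adjusted p = 0.0288), and 2 fell, Tnni2 (-0.61, 0.00355) and Mylpf (-0.22, 0.0282). In bulk tissue, fewer cells of a type and less RNA per cell cannot be told apart.

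Within groups and sets, Fstl1, Bmp2, Fst and Fstl3 varied with the fibroblast markers. The mean of each group in each set was removed from every value, so that the mean effects of ANG II and of the set do not enter. Differences between mice in their response to ANG II can remain. After this removal Fstl1 ran from -0.47 to 0.59 (log2) in hypertensive-LVH and from -0.09 to 0.15 in control. Relations within the control mice alone were not tested. In all, 30 relations (10 genes with fibroblast, endothelial and ventricular cardiomyocyte scores) were tested by permutation within each group and set. With the mean log2 level of 8 fibroblast markers, Fstl1 had Pearson's r = 0.87 (adjusted permutation p = 7e-04) and rho = 0.80 (0.00390), and r was 0.79 without the 2 mice farthest from the median. Bmp2 had r = 0.87 (adjusted permutation p = 7e-04) and rho = 0.89 (0.00150). Fst had r = 0.84 (adjusted permutation p = 0.00127) and rho = 0.84 (0.00360), and Fstl3 had r = 0.70 (0.00780) and rho = 0.67 (0.0153). Without the 2 farthest mice r was 0.83 for Bmp2, 0.83 for Fst and 0.68 for Fstl3. Of all 14018 genes tested that are not in the score, 6.98% had r of at least 0.70, as these 4 of the 10 did. Gdf15 (r = 0.18, rho = 0.14) and Bmp4 (r = 0.25, rho = 0.32) did not pass.

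With the endothelial markers Gdf15 had r = 0.58 (adjusted permutation p = 0.0364) and rho = 0.65 (0.0201), with r = 0.52 without the 2 farthest mice. Fstl1 had a larger r with this score, 0.68, and Inhba 0.42, both at an adjusted permutation p of 0.0519, so that the genes are not shown to differ. An r of at least 0.58 was found for 9.16% of all genes and for 2 of the 10. With the ventricular cardiomyocyte score Bmp2 passed by both measures, at r = -0.85 (adjusted permutation p = 7e-04) and rho = -0.79 (0.00360), with r = -0.80 without the 2 farthest mice. Fst (r = -0.65, 0.0218) and Inhba (r = -0.60, 0.0292) passed by r but not by rho (adjusted permutation p = 0.0789 and 0.0572), and Fstl1 passed by rho (-0.67, 0.0259) but not by r (-0.73, 0.0519). An r of -0.60 or lower was found for 15.1% of all genes and for 4 of the 10. The fibroblast sum, like Fstl1, was lowest in control samples 4 to 6, and its part in the differences between groups was not tested.

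**Figure D4:**
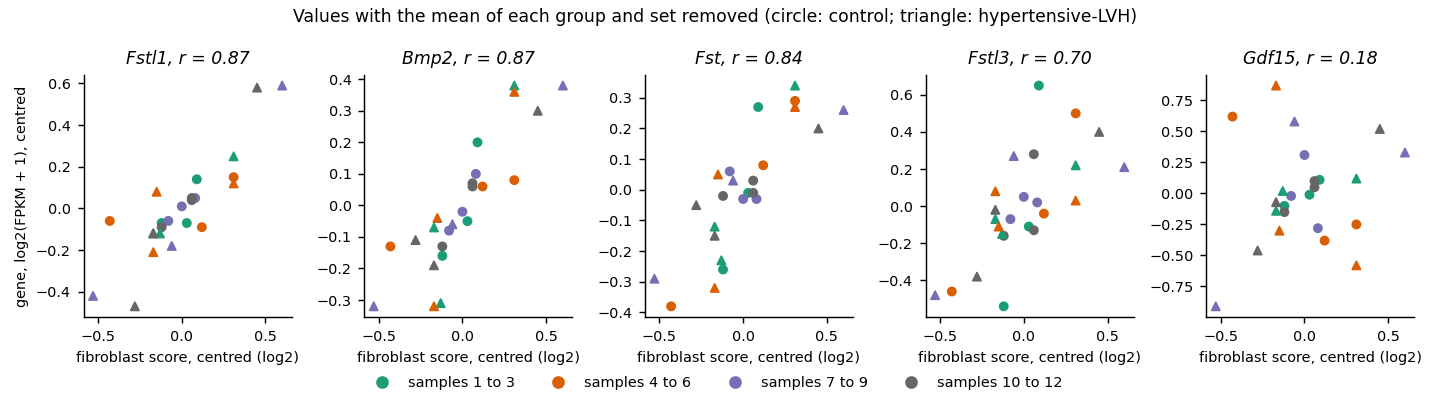
Log2(FPKM + 1) of Fstl1, Bmp2, Fst, Fstl3 and Gdf15 (y axis) against the fibroblast marker score (x axis, mean log2 level of 8 markers) in 24 mice, both with the mean of each group and set removed, circles for control and triangles for hypertensive-LVH, coloured by set. Points rise along a line for Fstl1, Bmp2 and Fst (r = 0.87, 0.87 and 0.84), more loosely for Fstl3 (0.70), and without a trend for Gdf15 (0.18).

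With the same group and set means removed, the genes that varied most like each of the 6 that rose were named by the highest r over 24 samples, as a description. For Fstl1 these were the collagens Col18a1 (0.95) and Col5a2 (0.93), with the small GTPase Cdc42 (0.94) between them. For Bmp2 they were Anxa1 (0.94), Serp1 (0.92) and Eef1a1 (0.92), and for Inhba Olfml2a (0.88), Dpysl3 (0.87) and Ptgfrn (0.87). Fstl3 was followed by Tmem39a (0.89), Arrb1 (0.87) and Plvap (0.86), a protein of endothelial diaphragms. Gdf15 was followed by Il6 (0.90), the cytokine interleukin-6, then by Arsi (0.87) and Mlec (0.84), and Bmp4 by Nalcn (0.87), Cdo1 (0.87) and Sub1 (0.86). Among the 10 genes themselves the highest r was that of Fst and Bmp2 (0.88), followed by Fstl1 and Bmp2 (0.81), while Gdf15 and Bmp2 had 0.05.

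Further genes of the pathway were counted in 6 lists. Among 10 other ligands tested, 2 rose and 1 fell, with a median log2 fold change of 0.01. In this and each list below, the counts stand beside 20.9% of all genes that rose and 12.6% that fell. With at most 3 rises a list, the ligands, receptors, antagonists, Smads and BMP targets lie near or below those shares. Gdf6 rose from 0.422 ± 0.308 to 1.29 ± 0.593 FPKM (log2 fold change 0.67, limma adjusted p = 4.06e-04), Gdf3 had 0.17 (0.0443), and Bmp7 fell from 0.919 ± 0.108 to 0.656 ± 0.157 FPKM (-0.22, 0.00130). All 3 lie near or below 1 FPKM. Of 13 receptors and co-receptors, 1 rose and 2 fell. Bmpr2, the type II BMP receptor, rose slightly from 10.3 ± 1.31 to 12.0 ± 1.81 FPKM (0.20, adjusted p = 0.0432). Rgma, a BMP co-receptor, fell from 24.6 ± 4.37 to 16.4 ± 4.01 FPKM (-0.57, adjusted p = 4.27e-04), and none of the 12 hypertensive-LVH mice was above the control median. Ret, the signalling partner of the Gdf15 receptor, fell from 1.90 ± 0.402 to 1.35 ± 0.316 FPKM (-0.31, adjusted p = 0.00571). The activin receptors Acvr2a (0.12, adjusted p = 0.194), Acvr2b (-0.14, 0.123) and Acvr1b (0.08, 0.334) did not pass. Under median-ratio scaling and under quantile normalization, no receptor rose and 4 fell, and neither Bmpr2 (0.20 as over all mice, adjusted p = 0.123) nor Gdf3 (0.07, 0.479) passed without samples 4 to 6. Rgmb, a co-receptor of the same list, fell without samples 4 to 6 (-0.24, limma adjusted p = 0.00189), but did not pass over all mice (-0.12, 0.105). In that fit no receptor or co-receptor rose and 3 of 13 fell, against 8.40% and 11.7% of all genes.

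Among 17 other extracellular antagonists, 3 rose and 1 fell. Nbl1, a secreted BMP antagonist, rose from 18.4 ± 5.48 to 30.4 ± 6.22 FPKM (log2 fold change 0.72, limma adjusted p = 4.37e-04), with all 12 hypertensive-LVH mice above the control median. Fstl4, of the follistatin-like family, rose from 1.18 ± 0.587 to 2.30 ± 0.584 FPKM (0.61, adjusted p = 5.07e-04). Wfikkn1, which binds myostatin, rose from 0.139 ± 0.0957 to 0.319 ± 0.154 FPKM (0.20, adjusted p = 0.00813), while Dand5 fell from 10.0 ± 0.998 to 8.04 ± 1.02 FPKM (-0.29, 7.81e-04). Noggin, Nog, the best known BMP antagonist, lay at 0.259 ± 0.146 and 0.235 ± 0.0826 FPKM (adjusted p = 0.767). Wfikkn1 no longer passed without samples 4 to 6 (0.13, adjusted p = 0.121).

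Of 12 Smad proteins and co-repressors, 3 rose and 1 fell. Smad1, which carries BMP signals, rose from 6.78 ± 1.26 to 8.81 ± 1.27 FPKM (log2 fold change 0.34, limma adjusted p = 0.00249), and Smad3, which carries activin signals, fell from 9.92 ± 0.866 to 8.65 ± 0.940 FPKM (-0.18, 0.0166). The co-repressors Skil (0.23, adjusted p = 0.0215) and Ski (0.22, 0.00883) rose. Among 10 BMP target genes, Atoh8 rose from 8.98 ± 2.67 to 13.2 ± 3.20 FPKM (0.52, adjusted p = 0.00227) and Id2 from 8.51 ± 2.70 to 12.4 ± 3.71 FPKM (0.50, 0.0153). Id1, a common readout of BMP signalling, was 57.1 ± 7.51 FPKM in hypertensive-LVH and 55.7 ± 9.56 FPKM in control (0.04, adjusted p = 0.737), and Smad6 and Smad7 did not pass either. Among these, when samples 4 to 6 were left out, Ski (0.16, adjusted p = 0.107), Skil (0.19, 0.156) and Id2 (0.26, 0.268) no longer passed, and Skil did not under quantile normalization.

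The list with most changes was that of the integrated stress response and p53, the known inducers of Gdf15: 7 of 15 rose and none fell, with a median log2 fold change of 0.28 (7 is to be read against 20.9% of all genes). Cdkn1a, the p53 target encoding p21, rose from 77.8 ± 45.8 to 142 ± 67.8 FPKM (0.89, limma adjusted p = 0.0158). Ddit4 rose from 35.0 ± 8.82 to 60.3 ± 14.6 FPKM (0.76, 9.07e-04), and Psat1, of serine synthesis, from 1.84 ± 0.479 to 3.40 ± 0.780 FPKM (0.63, 6.23e-05). Atf4 itself had a log2 fold change of 0.28 (adjusted p = 0.0135). Ddit3 (0.05, adjusted p = 0.674), Chac1 (0.30, 0.413), Fgf21 (0.00, 0.975) and Mdm2 (0.00, 0.966) did not pass. In the exact permutation test within sets on values before the adjustment, 4 of the 15 passed, against 17.8% of genes. They were Mthfd2 (exact adjusted p = 0.00398), Psat1 (0.00492), Ddit4 (0.00693) and Atf4 (0.0499). Cdkn1a did not pass that test (60.1 FPKM, exact adjusted p = 0.135). When samples 4 to 6 were left out, limma called 6 higher, against 8.40% of all genes in that fit. Among them were Cdkn1a at 1.45 (limma adjusted p = 5.12e-04), Ddit4 at 0.88 (0.00391), Psat1 at 0.56 (0.00423) and Atf4 at 0.33 (0.0252). Atf3, which had not passed over all mice (0.87, 0.0884), was at 1.30 (0.00792). Phgdh (0.16, limma adjusted p = 0.309) and Asns (0.17, 0.338) were lost in that fit, having passed over all mice (0.0144 and 0.0467).

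**Figure D5:**
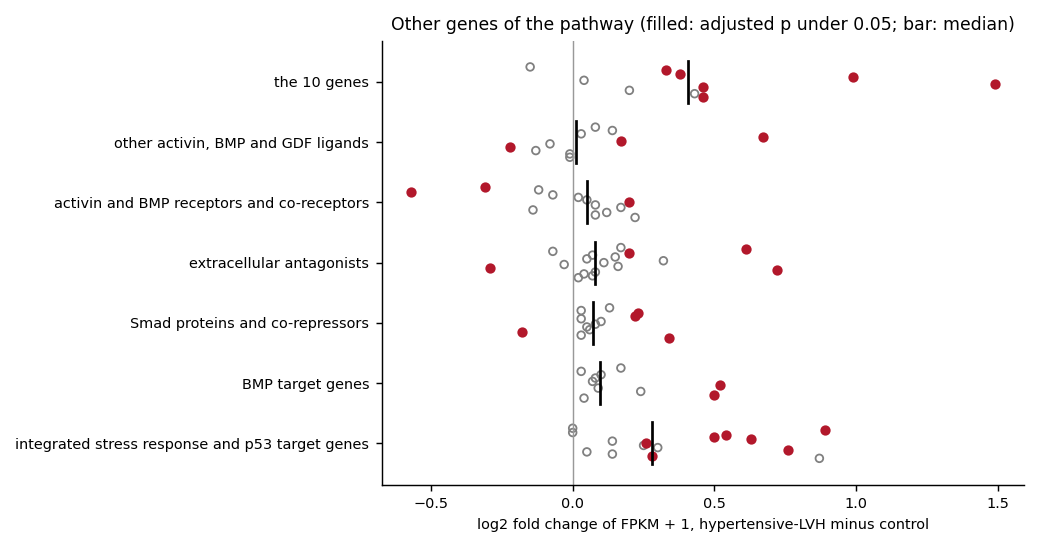
Log2 fold change of FPKM + 1 (x axis) of each tested gene of the 6 pathway lists and of the 10 genes (rows), filled where the limma adjusted p was under 0.05, with the median of each row as a bar. Medians lie between 0.01 for the other ligands and 0.41 for the 10 genes, and the stress response and p53 list has 7 filled points of 15, all above 0.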

How the data were processed

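Left ventricular RNA of 24 mice was sequenced after poly(A) enrichment. The submitters' processing notes name HISAT, Bowtie2 and RSEM, without versions; the genome build is not given in the sources used here. The authors deposited 1 table of 14912 genes by 24 samples holding FPKM further adjusted between sets of samples, a score that can be negative. Groups came from the labels, and no sample column was left out (0). Here negative values were set to 0, genes averaging 0.1 FPKM or more kept, and log2(FPKM + 1) tested with limma 3.58.1 (R 4.3.3; intensity trend, empirical Bayes, Benjamini-Hochberg). The FPKM differences before the adjustment were recovered from the 0.01 FPKM step of the unadjusted values, gene by gene, with Python 3.11.15. For 13969 genes, exact permutation tests within sets used them. Relations used 100000 resamples. Positions came from GENCODE vM21. The tests were tested on simulated data, in which the limma tests and the exact test met no rescaled values. All 10 members, up to 3 passing genes each way per pathway list, members that went against a list, and the 3 genes most like each passing member were to be named; the further pathway genes named with values that did not pass were chosen after their values were seen. Members, lists and tests were chosen with earlier results of these data known.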

Additional observations from a re-analysis of the deposited data

How the results depend on the processing

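Fstl3 and Gdf15 passed in all 13 alternative settings (adjusted p up to 7.71e-04 and 0.0308) and in all 24 fits without 1 mouse. The number of the 10 genes that passed, 6, became 3 with the Wilcoxon rank-sum test, 3 without samples 4 to 6 and 2 with a replicate block (17.7%, 8.40% and 11.3% of all genes then rose, against 20.9%), and 4 to 7 without single mice. The 2 DEGs became 4 without samples 10 to 12 and 2 to 4 without single mice (4 without hypertensive-LVH sample 9). Same-numbered samples share a number and a set, and no other pairing is named. None of the 12 pairs had a correlation of deviations over 0.1 (-0.56 to -0.00) and 0 correlated best with its own number. This check used deposited values, in which both groups of a set were adjusted together, so it cannot exclude a pairing. The replicate block left Fstl3 (adjusted p = 7.71e-04) and Gdf15 (0.0159), and gave 2 Smad genes, 1 BMP target and 3 stress response and p53 genes, against 4, 2 and 7. Mstn turned to -0.01 under quantile normalization, its only reversal. The 3 calls among other ligands became 0 at a mean FPKM of at least 1 (fewer genes tested). Smad genes passing were 2 without samples 1 to 3 and 2 without samples 4 to 6. BMP targets were 1 without samples 4 to 6, 1 without samples 7 to 9 and 1 in the exact test before the adjustment, which gave 4 stress response and p53 genes, as did leaving out samples 7 to 9. Without single mice the counts were 2 to 3 (other ligands), 2 to 4 (receptors), 4 to 5 (antagonists), 4 to 5 (Smads), 2 to 2 (BMP targets) and 6 to 8 (stress response and p53). The 2 interactions became 1 under median-ratio scaling, 1 under quantile normalization, 1 without samples 1 to 3, 0 without samples 4 to 6, and 0 to 3 without single mice. The cause of these changes was not tested. Median-ratio scaling and quantile normalization gave 2397 higher and 2235 lower, and 1922 higher and 2930 lower genes, against 2928 and 1769. DEGs were 1489 with a pseudocount of 0.1, against 831. Reads per sample are unknown, so the precision of genes under 1 FPKM, Fst and Mstn above all, cannot be stated. Tests within sets without 1 set were added after the data were seen.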
